A study of Homo sapiens with 4 samples.

Results

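Cyclin-dependent kinase inhibitors were followed in 4 RNA-seq libraries of U87, an established human glioma cell line. The 6 genes examined were the CIP/KIP genes CDKN1A, CDKN1B and CDKN1C, the INK4 genes CDKN2C and CDKN2D, and CDKN3. They were chosen by gene name, from 27940 symbols in the deposited tables, and all 6 were listed. The choice was made with earlier results of these data known. The 2 shPTPRN3 libraries came from cells infected with lentivirus that expresses a hairpin directed at PTPRN, a phosphatase-like membrane protein of secretory vesicles. The 2 shNC libraries came from cells infected with virus made from the empty FUGW-H1 vector, which the series' design text names H1-RFP (WT) instead. Both groups were grown alike in serum-containing medium, and the time after infection is not given in the sources used here. A single hairpin was sequenced and the control is not stated to carry one, so the effect of losing PTPRN and that of any hairpin cannot be told apart.

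Cyclin-dependent kinases (CDKs) drive the cell cycle when bound to a cyclin. Inhibitors of the CIP/KIP family (p21, p27 and p57) bind the cyclin and kinase together, mainly blocking CDK2 complexes, while INK4 proteins bind CDK4 and CDK6 alone and keep cyclin D away. CDKN3 encodes a phosphatase that removes the activating phosphate of CDK2, and its mRNA is made mostly by dividing cells. In glioma the INK4 genes are frequent targets of deletion, and U87 is known to lack CDKN2A and CDKN2B.

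The target sequence of the hairpin is shown because it defines the treated group. Its capitals mark the 7 letters (positions 14 to 20, counted from the 5′ end) that would pair with bases 2 to 8 of a guide exactly complementary to it; the strand loaded in the cells is not given.
shPTPRN3 target: ggaagtctgtattCAGGATGg
All 21 letters matched PTPRN and no other gene among 206694 GENCODE 29 transcripts. No transcript of the 6 inhibitor genes held the full sequence, and the longest run shared with any of them was 10 letters, in CDKN1A. The 7 capital letters were found in 2 of 4 CDKN1B transcripts and in none of the other 5 genes, against 17.5% of all transcripts.

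PTPRN stood at 5.22 and 3.42 FPKM in shPTPRN3 replicates 1 and 2, against 28.6 and 19.3 FPKM in shNC replicates 1 and 2 (FPKM are fragments normalised to transcript length and library size). The fitted log2 fold change of PTPRN was -2.22 (SE 0.34; limma, adjusted p = 0.0594). The tables hold no counts, so depth is unknown. Interval widths give depths of 1.56 and 0.675 for the shPTPRN3 libraries and 0.662 for shNC replicate 2, relative to shNC replicate 1. Summed mesenchymal glioma markers ran from 1675 to 3225 FPKM in shPTPRN3 and from 2162 to 2724 FPKM in shNC, with VIM at 1124 FPKM or more in every library. In that list NES was low, at 1.37 and 0.917 FPKM in shPTPRN3 against 2.44 and 3.91 FPKM in shNC, and FN1 had 358 and 86.4 FPKM in shPTPRN3 against 44.9 and 65.03 FPKM in shNC. Of 6 glial markers 5 were below 1 FPKM in every library, GFAP and AQP4 at 0, while SLC1A3 had 5.79 and 4.67 FPKM in shPTPRN3 against 7.03 and 12.3 FPKM in shNC. The part of these markers in the results was not tested. Summed immune markers ran from 308 to 458 FPKM in shPTPRN3 and from 234 to 247 FPKM in shNC, nearly all of it CD68, and PTPRC, the pan-leukocyte marker, stayed at or below 0.200 FPKM. Summed endothelial markers stayed below 1 FPKM, and summed epithelial markers ran from 1.73 to 2.07 FPKM in shPTPRN3 and from 1.51 to 2.47 FPKM in shNC. Summed neuronal markers ran from 118 to 336 FPKM in shPTPRN3 and from 163 to 345 FPKM in shNC, most of it TUBB3. The reference gene GAPDH had a log2 fold change of -0.12 and ACTB, the cytoskeletal actin, -1.24 (adjusted p = 0.969 and 0.482). The labels call the libraries biological replicates without saying whether cultures were separate, so every p-value here rests on library-to-library spread that may in part be technical.

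Of the 6 inhibitor genes, 4 were expressed at a level that could be tested. CDKN1A mRNA was 6.59-fold higher in shPTPRN3 than in shNC, and CDKN3 mRNA was 5.14-fold lower, both as ratios of scaled group means. CDKN1B and CDKN2D differed by less than 1.5-fold. By limma, 0 of the 4 passed an adjusted p of 0.05 over all genes tested, in either direction, against 0.421% of 11394 genes (0.079% higher and 0.342% lower). With no adjustment 2 of the 4 had p under 0.05, CDKN1A higher and CDKN3 lower, against 13.5% of all genes (5.66% higher and 7.79% lower). When the 267 genes listed at 0 in some library were left out of the fit, both passed, against 1.97% of 11127 genes (0.377% higher and 1.59% lower). The values of the groups did not overlap for 3 of the 4, 2 higher and 1 lower in shPTPRN3, against 44.6% of all genes tested (21.5% higher and 23.1% lower).

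CDKN1A, which encodes p21, lies on the plus strand of chromosome 6 (36676250 to 36687339, hg38). Its level was 641 and 865 FPKM in shPTPRN3 replicates 1 and 2, against 148 and 86.9 FPKM in shNC replicates 1 and 2. Both shPTPRN3 values lay far above both shNC values, and the deposited intervals, which cover error within a library and not between replicates, were narrow (642 to 658 and 862 to 891 FPKM in shPTPRN3, against 144 to 154 and 83.1 to 91.4 FPKM in shNC). The value of shPTPRN3 replicate 1 fell just outside its own interval, so these bounds are approximate. By rank of FPKM, CDKN1A was the 83rd and 28th most abundant of 27940 symbols in the shPTPRN3 libraries, and the 486th and 498th in the shNC libraries. After scaling, the means were 763 ± 219 FPKM in shPTPRN3 and 116 ± 37.6 FPKM in shNC (SD, n = 2). The fitted log2 fold change, on the scale of log2(scaled FPKM + 1), was 2.72 (SE 0.49; limma, adjusted p = 0.0762). Within replicates numbered 1 the log2 difference was 2.09, and within those numbered 2 it was 3.35. An exact two-sided permutation test of 2 against 2 libraries gave p = 0.333, the smallest this design allows. The gene DINOL, on the opposite strand within the same locus, was listed at 0 in all 4 libraries, and without a known strand setting its reads cannot be told apart from those of CDKN1A.

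**Figure D1:**
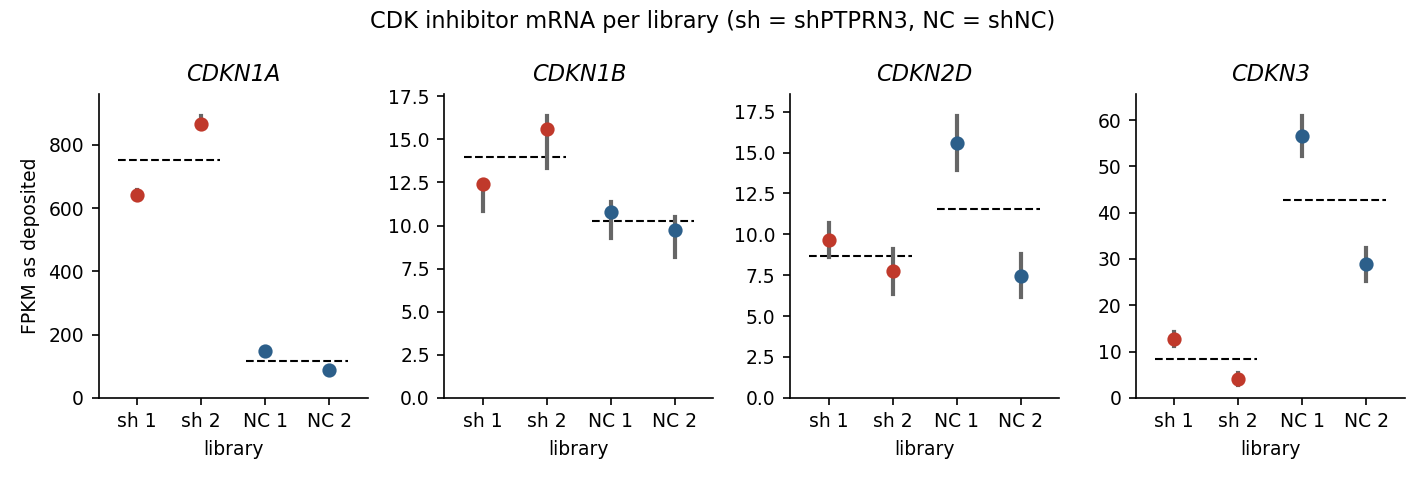
FPKM as deposited in each library for the 4 expressed inhibitors, with shPTPRN3 libraries in red on the left and shNC libraries in blue on the right; bars are the deposited intervals and dashed lines the group means. CDKN1A stands at 641 and 865 FPKM in shPTPRN3 against 148 and 86.9 in shNC, CDKN3 shows the opposite order, and CDKN2D overlaps between the groups.

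The stretch just before the first exon that GENCODE 29 places at this CDKN1A start is shown because CDKN1A had the largest log2 fold change of the inhibitors tested; whether its letters bear on that value was not tested. It comes from the RefSeq promoter table (GRCh38.p14, plus strand, chr6:36678464-36678657), 194 bases before the exon that begins at 36678658. Capitals mark GC boxes (GGGCGG), letters known to bind SP1-family factors.
CDKN1A upstream: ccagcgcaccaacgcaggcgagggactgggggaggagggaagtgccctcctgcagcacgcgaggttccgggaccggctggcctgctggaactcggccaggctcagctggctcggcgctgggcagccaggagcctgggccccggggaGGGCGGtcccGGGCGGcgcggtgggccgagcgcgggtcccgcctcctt
The 250 bases before the RefSeq start at 36678714 held 4 matches to GGGCGG, read on both strands, of which 2 lie in the printed stretch and the other 2 share a base with each other. At least 1 such match was found in 42.6% of 35114 promoters of that length. The window held no CCAAT and no TTTGAA, and its GC content was 76.4%.

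CDKN1B, which encodes p27, lies on chromosome 12 (12717270 to 12722382). It had 12.4 and 15.6 FPKM in shPTPRN3 replicates 1 and 2, against 10.8 and 9.72 FPKM in shNC replicates 1 and 2. The groups did not overlap, but the gap between shPTPRN3 replicate 1 and shNC replicate 1 was small beside the spread within shPTPRN3. The scaled means were 14.2 ± 3.35 FPKM in shPTPRN3 and 10.2 ± 0.286 FPKM in shNC (SD, n = 2), with a log2 fold change of 0.42 and an SE of 0.32 (limma, adjusted p = 0.621). The log2 difference was 0.17 within the replicates numbered 1 and 0.68 within those numbered 2.

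CDKN1C, which encodes p57 and is imprinted, with the maternal copy active, was close to absent from these libraries. It was listed at 0 in both shPTPRN3 libraries, against 0.0488 FPKM in shNC replicate 1 and 0 in shNC replicate 2. It has 2 rows in the tables, 1 on chromosome 11 (2883218 to 2885775) and 1 on an alternate sequence, with 0.0244 FPKM each in shNC replicate 1. No fold is given. The nearest listed genes on either side, KCNQ1DN and SLC22A18AS, were listed at 0 in every library. The imprinted domain was not silent throughout: SLC22A18, a transporter gene 13915 bases away, had 16.9 and 5.60 FPKM in shPTPRN3 and 16.4 and 7.54 FPKM in shNC. Of 8 genes listed around CDKN1C and in the neighbouring H19 domain, 4 were tested. By limma 0 passed the threshold over all genes, against 0.421% of all genes, and 0 had an unadjusted p under 0.05, against 13.5%. PHLDA2, a placental growth inhibitor of the domain, had a log2 fold change of 0.71, TSSC4 -0.52 and SLC22A18 -0.16.

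CDKN2D, which encodes p19 of the INK4 family, lies on chromosome 19 (10566460 to 10568979). It had 9.66 and 7.74 FPKM in shPTPRN3 replicates 1 and 2, against 15.6 and 7.46 FPKM in shNC replicates 1 and 2. The 2 groups overlapped, with shNC replicate 1 alone standing high. The fitted log2 fold change was -0.28 (SE 0.38; limma, adjusted p = 0.804), and without shNC replicate 1 it was 0.16.

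CDKN2C, which encodes p18 of the INK4 family, was listed at 0 FPKM in all 4 libraries, so the data do not show it as an expressed INK4 gene of these cells. The row lies on chromosome 1 (50968695 to 50974634) and no other row overlaps it. FAF1, the adjacent gene on its left and one that most cell types express, had 0 and 0.00895 FPKM in shPTPRN3, against 0.0347 and 0 FPKM in shNC. Going left, the first listed gene at 1 FPKM or more in every library was SPATA6, 2496486 bases away, and none of the 7 listed genes between exceeded 0.0624 FPKM. To the right it was RNF11, a RING finger gene 261638 bases away, with 36.6 and 33.0 FPKM in shPTPRN3 and 17.7 and 20.4 FPKM in shNC. Leaving out small RNAs, 1 of 10 listed genes within 3 Mb to the left stood at 1 FPKM or more in every library, against 24 of 41 to the right. Several of the genes to the left, such as ELAVL4, are restricted to other tissues, and copy number was not analysed here.

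**Figure D2:**
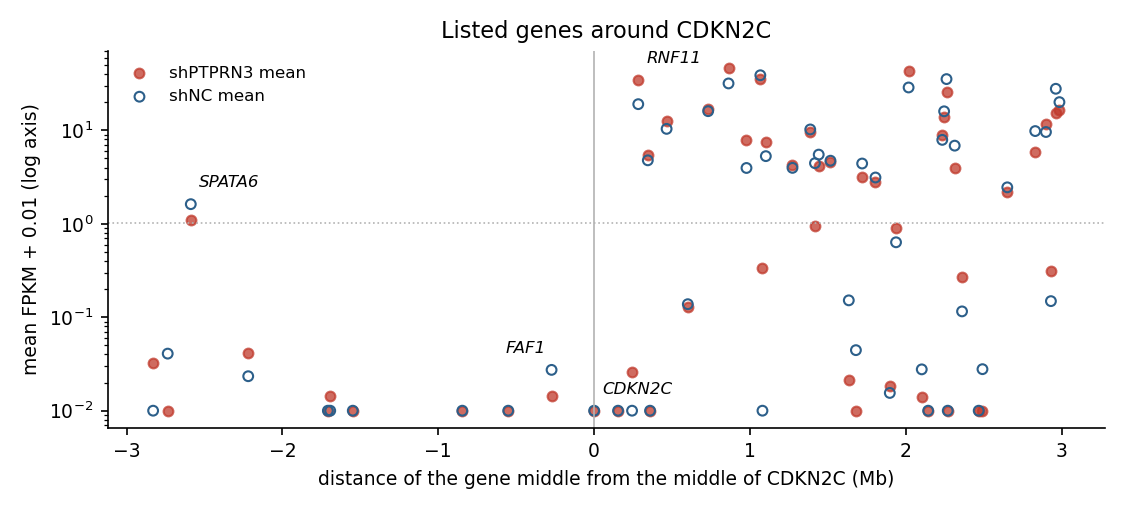
Mean FPKM plus 0.01, on a log axis, of listed genes within 3 Mb of CDKN2C, by distance of their middle from that of CDKN2C; filled points are shPTPRN3 means and open points shNC means, and the dotted line marks 1 FPKM. FAF1 and CDKN2C lie at the bottom in both groups, and expressed genes resume at RNF11.

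The other INK4 genes, CDKN2A (p16 and ARF) and CDKN2B (p15), showed the same near absence. CDKN2A was listed at 0 in both shPTPRN3 libraries, against 0.0376 and 0.0579 FPKM in shNC. CDKN2B had 0.0127 and 0 FPKM in shPTPRN3, against 0 in both shNC libraries. MTAP, the metabolic enzyme gene next to CDKN2A on chromosome 9, had 0 and 0.0102 FPKM in shPTPRN3, against 0 and 0.0208 FPKM in shNC. CDKN2D was thus the INK4 gene with a measurable level in these libraries.

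CDKN3, the CDK2 phosphatase gene, lies on chromosome 14 (54396868 to 54420216). It had 12.7 and 4.04 FPKM in shPTPRN3 replicates 1 and 2, against 56.5 and 28.8 FPKM in shNC replicates 1 and 2. The higher shPTPRN3 value was less than the lower shNC value, so the groups did not overlap. The deposited intervals were 11.3 to 14.2 and 2.82 to 5.26 FPKM in shPTPRN3, against 52.3 to 60.9 and 25.3 to 32.4 FPKM in shNC. They cover error within a library, and replicates of a group lay outside each other's intervals. Within each group the higher value was more than 1.5 times the lower one. The scaled means were 8.19 ± 5.52 FPKM in shPTPRN3 and 42.0 ± 17.6 FPKM in shNC (SD, n = 2). The fitted log2 fold change was -2.31 (SE 0.52; limma, adjusted p = 0.117), and without shPTPRN3 replicate 1 it was -2.96 (adjusted p = 0.0358). Without shPTPRN3 replicate 2 it was -1.65 (adjusted p = 0.504), and without shNC replicate 1 or 2 limma's adjusted p was 0.488 or 0.287. The log2 difference was -2.08 within the replicates numbered 1 and -2.53 within those numbered 2. In bulk RNA, fewer cells that make a transcript and less of it per cell cannot be told apart.

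The CDKN3 upstream stretch is shown for comparison with that of CDKN1A (RefSeq, GRCh38.p14, plus strand, chr14:54396757-54396848), 92 bases before the first exon in GENCODE 29. Capitals mark a CCAAT box, known to bind the factor NF-Y, and a cell cycle homology region (CHR, TTTGAA, here on the minus strand and so printed as TTCAAA), an element known from genes of mitosis.
CDKN3 upstream: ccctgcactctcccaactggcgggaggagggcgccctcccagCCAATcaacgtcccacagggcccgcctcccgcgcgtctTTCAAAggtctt
The CHR letters begin 12 bases and the CCAAT letters 50 bases before that exon. Counted from the RefSeq start at 54397007 they begin 170 and 208 bases before it. A second CCAAT, outside the printed stretch, begins 83 bases before that start. Of 35114 promoters of 250 bases, 13.3% held TTTGAA and 32.01% held CCAAT on either strand. Among the 5 inhibitor genes with a promoter in the table, CDKN3 was the one with TTTGAA, while CDKN1B, CDKN2D and 1 of the 3 windows of CDKN2C each held CCAAT and GGGCGG. No window of the 5 held the E2F letters TTTCCCGC or TTTGGCGC, found in 1.39% and 0.550% of promoters. Among the promoters of CDK1 and the A- and B-type cyclins, 3 of 7 held TTTGAA, those of CDK1 and CCNB2.

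**Figure D3:**
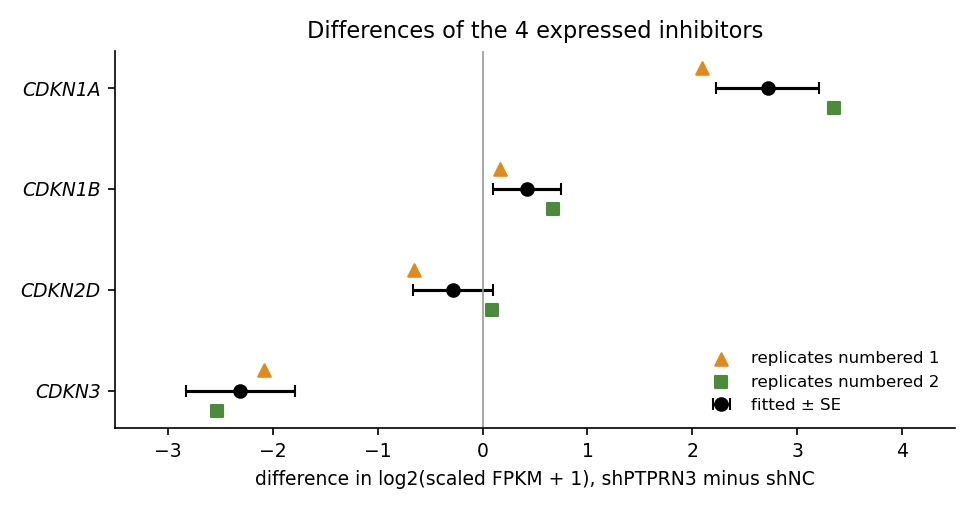
Difference in log2(scaled FPKM + 1), shPTPRN3 minus shNC, for the 4 expressed inhibitors; circles are the fitted values with their SE, triangles the difference within replicates numbered 1 and squares within those numbered 2. CDKN1A lies at 2.72 and CDKN3 at -2.31, while CDKN2D falls on either side of 0.

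With CDKN1A high and CDKN3 low, the make-up of inhibitor mRNA differed between the groups. CDKN1A supplied 94.8% and 96.9% of the summed FPKM of the 6 genes in the shPTPRN3 libraries, against 64.0% and 65.4% in the shNC libraries. CDKN3 supplied 1.88% and 0.453% in shPTPRN3, against 24.5% and 21.7% in shNC. Shares of a sum depend on each other, so a share can be lower where the level is not. CDKN1B supplied 1.84% and 1.75% in shPTPRN3, against 4.67% and 7.31% in shNC, although its FPKM were higher in shPTPRN3. FPKM are per transcript length, so these are shares of transcripts rather than of reads. In shPTPRN3 the order of mean levels was CDKN1A (753 ± 159 FPKM), CDKN1B (14.0 ± 2.24), CDKN2D (8.70 ± 1.35) and CDKN3 (8.38 ± 6.14), and neither CDKN3 and CDKN2D nor CDKN3 and CDKN1B differed beyond their spread. In shNC it was CDKN1A (117 ± 43.0 FPKM), CDKN3 (42.7 ± 19.6), CDKN2D (11.5 ± 5.74) and CDKN1B (10.2 ± 0.745), of which the last pair did not differ beyond their spread.

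**Figure D4:**
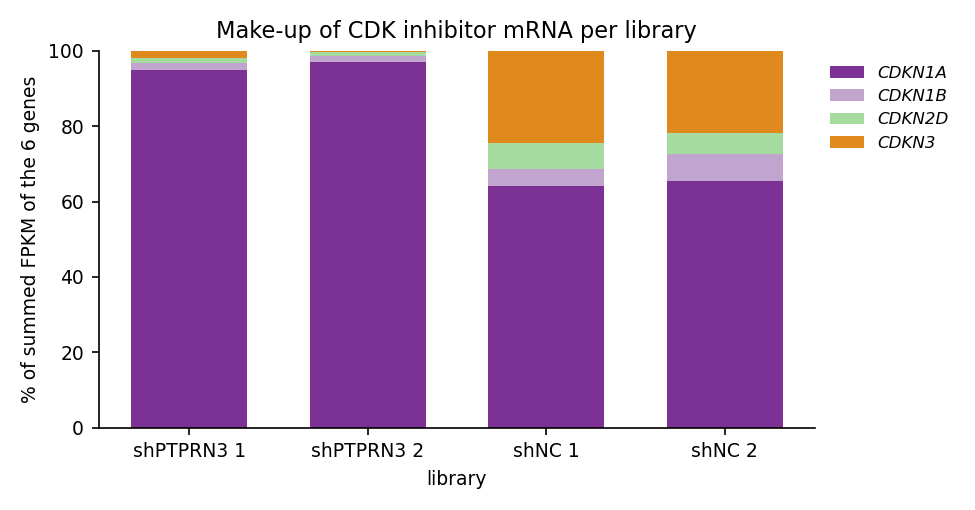
Share of the summed FPKM of the 6 inhibitor genes in each library, with shPTPRN3 libraries on the left; CDKN1C and CDKN2C are too low to show. CDKN1A fills 94.8% and 96.9% of the shPTPRN3 bars, against 64.0% and 65.4% of the shNC bars.

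The kinases and cyclins that the inhibitors act on are given by phase, with no test between phases. Among 6 tested G1 genes 0 were called by limma, against 0.421% of all genes. The median log2 fold change was 0.07, against -0.01 over all genes tested, and below 0 in 4 of the 16 alternatives. Of these 6, 1 was higher and 1 lower at a raw p under 0.05, against 5.66% and 7.79% of all genes. CCND1, the cyclin D1 gene, had 175 and 135 FPKM in shPTPRN3 against 87.01 and 80.98 FPKM in shNC, a log2 fold change of 0.88 (adjusted p = 0.371 by limma). CDK2, the main kinase target of p21, had 9.61 and 6.22 FPKM in shPTPRN3 against 19.9 and 15.4 FPKM in shNC (log2 fold change -1.07, adjusted p = 0.222). CCNE1, the cyclin E1 gene and partner of CDK2, had a log2 fold change of -0.80. Of the other kinases, CDK4 had -0.42 and CDK6 0.56; both were named after their values were seen. CCNE2 was listed at 0 in both shPTPRN3 libraries, against 1.53 and 1.70 FPKM in shNC, and was below the level tested.

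Of the kinase and cyclins of S phase and mitosis, 4 of 6 were tested. CDK1 was called lower by limma over all genes in the fit as reported, though not under every setting. CDK1, the kinase of mitotic entry, had 2.33 and 0.387 FPKM in shPTPRN3 against 31.5 and 19.5 FPKM in shNC. The fitted log2 fold change was -3.59 (SE 0.46; limma, adjusted p = 0.0361). The share of all genes called lower was 0.342%. limma called 0 genes of this list on unscaled FPKM, on TPM, or with a pseudocount of 0.1 or 0.5. It also called 0 with no filter, with a mean of at least 5 FPKM, or without the trend. With quantile normalization or all rows kept it called 1 as lower, and with robust eBayes 3. The median over the 4 was -2.86, and each of the 4 was lower at an unadjusted p under 0.05, against 7.79% of all genes. Without genes listed at 0 all 4 were called by limma as lower, against 1.59% of all genes. CCNA2, CCNB1 and CCNB2, the cyclin A2, B1 and B2 genes, had log2 fold changes of -2.33, -2.87 and -2.85 and were named after their values were seen.

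Ratios of inhibitor to kinase mRNA restate the levels given above and are not a separate result. CDKN1A made up most of the CIP/KIP sum in every library. Summed FPKM of the 3 CIP/KIP genes were 6.43 and 12.7 times the summed FPKM of CDK1, CDK2, CDK4 and CDK6 in the shPTPRN3 libraries, against 0.865 and 0.886 times in the shNC libraries. CDKN1A was 66.7 and 139 times the level of CDK2 in shPTPRN3, against 7.41 and 5.63 times in shNC. CDKN3 had a lower level in shPTPRN3, but CDK1 was lower still: CDKN3 was 5.47 and 10.4 times the level of CDK1 in shPTPRN3, against 1.80 and 1.48 times in shNC. The ratio of 10.4 rests on a CDK1 value of only 0.387 FPKM in shPTPRN3 replicate 2, so it is uncertain. These ratios describe mRNA, and protein was not measured.

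Enzymes that switch CDKs on and off were mostly at lower values in shPTPRN3, with 0 of 7 tested genes called by limma, against 0.342% of all genes called lower, and a median log2 fold change of -0.48. At an unadjusted p under 0.05, 3 were lower, against 7.79% of all genes, and without genes listed at 0 limma called 1, PKMYT1, against 1.59%. The phosphatases CDC25A and CDC25B, which activate CDKs, had log2 fold changes of -1.32 and -1.27. PKMYT1, the kinase that holds CDK1 inactive, had -2.20. The kinase complex CDK7, CCNH and MNAT1, which places the activating phosphate, had 0.14, -0.14 and -0.48, named after their values were seen.

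The list of ubiquitin ligases that mark p21, p27 and p57 for destruction, with cofactors and PCNA, held 13 tested genes. By limma 0 of them were called, against 0.421% of all genes. At an unadjusted p under 0.05, 4 were lower, against 7.79% of all genes, and CKS1B and PCNA were among these 4. Without genes listed at 0 limma called 1 as lower, DTL, against 1.59% of all genes. The median log2 fold change was -0.30, and between -0.33 and 0.03 under other settings, above 0 only without shNC replicate 1. DTL, the substrate receptor that destroys p21 bound to PCNA, had 1.11 and 0.598 FPKM in shPTPRN3 against 5.41 and 5.40 FPKM in shNC (log2 fold change -1.80, adjusted p = 0.0663). CKS1B, the cofactor that presents p27 to SKP2, had 23.8 and 9.83 FPKM in shPTPRN3 against 115 and 41.2 FPKM in shNC (log2 fold change -2.08, adjusted p = 0.180). PCNA, the sliding clamp of replication, had -1.15. SKP2 itself had -0.94 and was named after its values were seen. The cullin scaffolds of these ligases differed less, from 0.22 for CUL1 to -0.48 for CUL4A, also named after their values were seen.

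Among 16 tested transcription regulators of the CIP/KIP genes, 0 were called by limma, against 0.421% of all genes. A raw p under 0.05 was found for 4, against 13.5% of all genes, and the median log2 fold change was -0.11. Of these 4, 1 was higher in shPTPRN3 and 3 were lower, against 5.66% and 7.79% of all genes. FOXO4, of the FOXO factors that activate CDKN1B, had 4.04 and 7.41 FPKM in shPTPRN3 against 1.33 and 2.19 FPKM in shNC (log2 fold change 1.27, adjusted p = 0.234). EGR1, an immediate-early factor, had -1.32, and TFAP4, a repressor of CDKN1A, had -1.23. MYC, whose protein represses CDKN1A through ZBTB17, had -0.82 and ZBTB17 had -0.20, both named after their values were seen.

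The RB proteins and E2F factors lie downstream of the inhibitors, since active CDKs free E2F from RB. Of 12 tested genes 0 were called by limma over all genes, against 0.421% of all genes, and the median was -0.58. At an unadjusted p under 0.05, 5 were lower and 0 higher, against 7.79% and 5.66% of all genes. E2F1 had 8.31 and 4.63 FPKM in shPTPRN3 against 37.4 and 26.5 FPKM in shNC, and TFDP1, its dimer partner, had 12.6 and 4.63 FPKM against 53.7 and 42.3 FPKM. Their log2 fold changes were -2.16 and -2.47 (limma, adjusted p = 0.0663 and 0.0735), and E2F2 had -1.39. Without genes listed at 0 limma called 3 of the 12 as lower, namely E2F1, TFDP1 and E2F2, against 1.59% of all genes. RB1 itself had 0.53, while RBL1 and RBL2, the other RB family genes, had -1.17 and -0.38. Among the repressor E2F factors, E2F4 had 0.03, E2F5 -0.60, E2F6 0.64 and E2F8 -1.31, named with RB1, RBL1 and RBL2 after their values were seen.

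**Figure D5:**
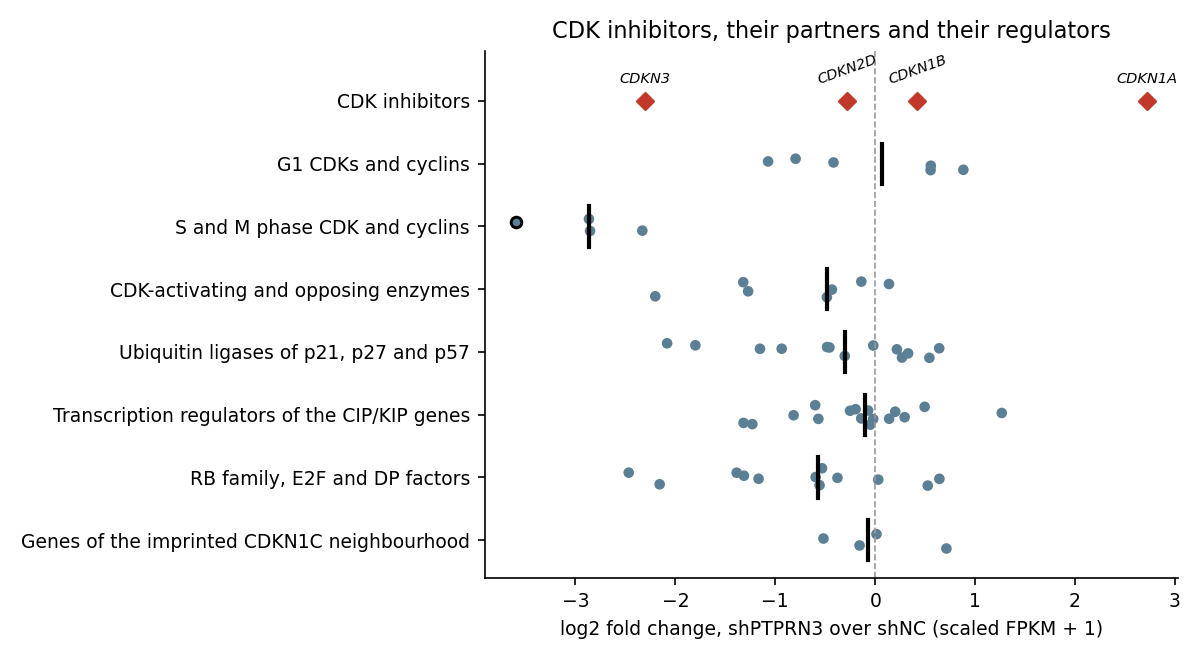
Log2 fold change, shPTPRN3 over shNC on the scale of log2(scaled FPKM + 1), of the 4 expressed inhibitors (red diamonds) and of each tested gene of 7 lists (dots; a black rim marks an adjusted p under 0.05 over all genes, vertical bars the list medians). CDK1 is the only rimmed dot and the S and M phase list lies at a median of -2.86; the dashed line is the median of all genes.

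Profiles over the 4 libraries were compared by distance between centred log2 values, among 7197 genes at a mean of 5 FPKM or more and never listed at 0. Nearest to CDKN1A were CPA4, a carboxypeptidase gene, IL6R, the interleukin-6 receptor gene, and MMP3, a matrix metalloproteinase gene, at distances of 0.398, 0.558 and 0.663. CPA4 had 103 and 109.8 scaled FPKM in shPTPRN3, against 22.3 and 13.6 in shNC. Nearest to CDKN3 were PCLAF, a PCNA-binding factor, PKMYT1, and HMGB2, a chromatin protein, at 0.116, 0.152 and 0.174. HMGB2 had 11.4 and 3.67 scaled FPKM in shPTPRN3, against 45.5 and 23.8 in shNC. For CDKN1B they were POLDIP2, NGRN and OTUD5, at 0.0255 to 0.0453, and for CDKN2D LINC00467, FLAD1 and NGDN, at 0.0592 to 0.0734. With 4 libraries, 2 of each group, many genes share such a profile, and the distances say only how alike the values were.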

How the data were processed

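Per the labels' protocols, RNA was prepared with a stranded mRNA kit. Per the submitters' processing notes, the tools were Cufflinks 2.2.1.2, STAR 2.6.0b-1 and FastQC 0.72, on hg38; neither annotation nor strand setting is stated in them. The authors deposited FPKM with intervals for 33646 gene rows a library, per the file headers; such values change with the transcript length assumed.

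The 651 rows that any library marks with a status besides OK were dropped, the others summed per symbol, and libraries scaled by median ratio over 9988 genes at 1 FPKM or more in all. Genes averaging 1 FPKM or more (11394) entered limma 3.58.1 (R 4.3.3) on log2(scaled FPKM + 1), eBayes with trend, two-sided, Benjamini-Hochberg adjusted over all genes, threshold 0.05, with 2 residual and 4.94 prior degrees of freedom. The code was tested on simulated data. Alternatives covered scaling, pseudocount, filters, row status, eBayes settings, genes listed at 0, the replicate block and leaving out each library.

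The members, lists and tests were chosen with earlier results of these data known. From each list, genes past the threshold were named, or else the 3 with the largest fold change never listed at 0; other names were chosen after their values were seen. Likeness is Euclidean distance between centred log2 profiles, 3 genes a member. GENCODE 29 and RefSeq tables gave models and sequences; 5 of the 6 genes had a promoter entry. Python 3.11.15, pandas 2.3.3 and scipy 1.17.1 did the rest. A regulator and a list of target genes are not reported here.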

Additional observations from a re-analysis of the deposited data

How the results depend on the processing

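The log2 fold changes of the 4 tested inhibitors kept their sign under all 16 alternatives, except CDKN2D, at 0.16 without shNC replicate 1. Leaving out 1 library gave 2.38 to 3.05 for CDKN1A, 0.19 to 0.65 for CDKN1B, -0.73 to 0.16 for CDKN2D and -2.96 to -1.65 for CDKN3. Over the 15 alternatives without a block, limma's adjusted p ran from 0.0325 to 0.446 for CDKN1A and from 0.0358 to 0.504 for CDKN3; CDKN1B and CDKN2D passed under none. CDKN1A passed on TPM (2.82, adjusted p = 0.0387), where the median over all genes was 0.08, and without genes listed at 0 (2.72, adjusted p = 0.0325). CDKN3 passed without genes listed at 0 (-2.31, adjusted p = 0.0426) and without shPTPRN3 replicate 1. Both had an unadjusted p under 0.05 in every fit. CDKN1C and CDKN2C gave no value in the fit as reported.

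limma called 48 genes in all. The count was 219 without genes listed at 0, 160 with robust eBayes, 26 without its trend, 8 among genes averaging 5 FPKM or more, 23 for a pseudocount of 0.1, 30 for TPM and 31 for unscaled FPKM. Keeping every low gene gave 0, with 2163 genes at a raw p under 0.05. Leaving out 1 library gave 39 to 178. The list medians, those of the transcription regulators not counted, moved by less than the spread between replicates in 86 of 96 cases. The causes were not tested. Same-numbered libraries deviated together (r = 0.519 across genes), but with only 2 pairs the numbers are not shown to pair the samples. With 2 libraries a group, both pairs must give the same r, so it is a single value. Relative depth was also higher in replicates numbered 1 (1.56 in shPTPRN3, 1.0 in shNC) than in those numbered 2 (0.675 and 0.662). The part of depth was not tested. With the replicate block limma called 2168 of 11394 genes. Among them were CDKN1A at 2.72 (limma, adjusted p = 1.51e-06) and CDKN3 at -2.31 (limma, adjusted p = 8.35e-07). The blocked fit leaves fewer than the 2 residual degrees of freedom of the fit as reported, so its p-values lean more on the eBayes prior. The main limits are 2 libraries a group, 1 hairpin, unknown depth and no counts.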
